A study of Arabidopsis thaliana with 12 samples.

Results

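The circadian clock transcripts grouped around GI were followed by 7 probe sets of the Affymetrix ATH1 array. They were chosen by gene identity, as GI, CCA1, LHY, PRR9, PRR7, PRR5 and TOC1, with earlier results of these data known. Of the 7 probe set identifiers, 6 were found among the 22746 probe sets tested, and 266720_at, listed for PRR9, was not in the table used here. The table holds 266720_s_at, whose suffix marks sets that can match more than 1 transcript, and its values are given apart from the 6. The platform annotation used here names 264211_at as GI (AT1G22770). The other 5 probe sets are named by the pairing that defined the set, namely 266719_at for CCA1 (AT2G46830), 261569_at for LHY (AT1G01060), 250971_at for PRR7 (AT5G02810), 249741_at for PRR5 (AT5G24470) and 247525_at for TOC1 (AT5G61380).

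Total RNA of untreated Arabidopsis thaliana seedlings of the accession Columbia was hybridised to 12 arrays, 3 for each of 4 genotypes. COL stands for wild-type plants. The lines labelled AB, SIZ1 and SAB are T-DNA insertion knock-outs, and for AB and SAB the disrupted genes are not given in the labels. SIZ1 is the name of a ligase that attaches the small protein SUMO to other proteins, and the stated topic of the series was ubiquitin-like proteases, the enzyme class that removes SUMO. For AB 1 and AB 2 the labels state an age, 10 days, in place of the single harvest date that they state for all the other arrays. Neither the time of day of the harvest nor the light and dark cycle is given in the labels. No label places the 3 samples of a genotype in separate cultures, and p-values therefore rest on a spread between samples that may be technical.

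The plant clock is a set of transcription factors and associated proteins that repress each other in turn over the day. CCA1 and LHY are Myb-like factors that peak around dawn and repress evening genes. The pseudo-response regulators PRR9, PRR7, PRR5 and TOC1 peak one after the other from morning to evening and repress CCA1 and LHY, and GI, a large protein that peaks in the later part of the day, stabilises the F-box protein that degrades TOC1 and PRR5 and promotes flowering through CONSTANS. A rhythmic transcript sampled once can differ between plants because its peak is earlier or later, or because its level is different at every time.

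Values are GCRMA expression values on the log2 scale as the authors deposited them, from 2.02 to 13.21, and the number of arrays limits the precision. The lines were checked first. The brighter SIZ1 probe set stood at 5.50 ± 0.12 (SD, n = 3) in COL, 5.26 ± 0.16 in AB, 2.40 ± 0.18 in SIZ1 and 2.52 ± 0.03 in SAB, and a dimmer one was higher in SIZ1 and SAB than in COL. SPF1, a SUMO protease, stood at 4.76 ± 0.03 in COL, 3.17 ± 0.33 in AB, 4.29 ± 0.07 in SIZ1 and 3.23 ± 0.09 in SAB, and SPF2, another SUMO protease, lay between 2.62 and 2.89 on all arrays. The green tissue genes LHCB4.1, LHCB4.2 and RCA, the 3 of 8 markers with a probe set of their own, lay between 10.24 and 12.38. The root marker EXP7, 1 of 8, lay between 2.46 and 2.74, and no seed or flower marker was named alone, so those tissues were not checked.

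GI was lower in both lines with low SIZ1 signal. It read 6.88, 6.69 and 6.34 on the COL arrays, 6.56, 6.58 and 6.03 in AB, 5.65, 5.63 and 5.77 in SIZ1, and 5.64, 5.62 and 5.40 in SAB. Every SIZ1 and SAB array lay below every COL and AB array, the values of COL and AB overlapped, and so did those of SIZ1 and SAB. Across all probe sets, 5.98% were split without overlap between these groups of 6 arrays, and 2.71% were split with SIZ1 and SAB lower. Taken by pairs of genotypes, SIZ1 and COL did not overlap for 34.1% of all probe sets, SAB and COL for 18.2%, SAB and AB for 20.9%, and SIZ1 and AB for 41.6%. SIZ1 was the lower of the pair with COL for 26.0% and of the pair with AB for 31.0%. SAB was the lower of the pair with COL for 9.83%, of the pair with AB for 10.3% and of the pair with SIZ1 for 3.69%.

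GI fell by 0.95 in SIZ1 relative to COL (SE 0.17, 1.94-fold, limma adjusted p = 0.0176) and by 1.08 in SAB (SE 0.17, 2.12-fold, limma adjusted p = 0.0112). Relative to AB it fell by 0.84 in SAB (1.79-fold, limma adjusted p = 0.0257) and by 0.71 in SIZ1 (1.63-fold, limma adjusted p = 0.0449). In the comparison of SIZ1 and SAB with COL and AB, 6 arrays against 6, it fell by 0.90 (SE 0.12, 1.86-fold, limma adjusted p = 0.00195). The difference between AB and COL was -0.25, with a 95% interval of -0.63 to 0.13, and that between SAB and SIZ1 was -0.13, with an interval of -0.51 to 0.25. The order of the means was thus COL, AB, SIZ1 and SAB, and of the neighbours in it AB and SIZ1 differed beyond their spread, while COL and AB, and SIZ1 and SAB, were not called different.

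The call of GI with 6 arrays against 6 was kept in all 20 alternatives, with limma adjusted p from 0.000233 to 0.0207. The call in SIZ1 against COL ended without COL 1, COL 2, SIZ1 1 or SIZ1 2 (limma adjusted p up to 0.0693), that of SAB against AB without AB 1, AB 2 or any of the SAB arrays (up to 0.0962), and that of SIZ1 against AB without AB 1, AB 2, COL 2 or any of the SIZ1 or SAB arrays (up to 0.147).

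AB 1 and AB 2, the arrays whose labels give an age, had the higher GI values of their line. With AB 3 alone to stand for AB, and assuming that it varies like the other arrays, GI differed from AB by -0.48 in SAB and by -0.34 in SIZ1 and neither difference was called (limma adjusted p = 0.412 and 0.596). AB differed from COL by -0.61 in that fit, against -0.25 with all 3 AB arrays and -0.06 without AB 3. Without COL 1 the difference was -0.13 and without COL 3 -0.39, neither called. AB 3 shares its number with COL 3, which was the lowest COL array. Between arrays of the same number, GI in AB minus COL came to -0.32, -0.11 and -0.32 for the numbers 1, 2 and 3. The 6 against 6 difference was -0.71 with AB 3 alone (limma adjusted p = 0.0207). Whether the difference in labels has a part in these values was not tested.

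Other measures that moved with genotype are given here beside GI. The amount of RNA per array ranged from 681 to 812 ng in COL, 678 to 790 in AB, 652 to 802 in SIZ1 and 850 to 894 in SAB. The mean amount was 727 ng in SIZ1 and 871 ng in SAB, the lowest and the highest of the 4 means. Relative to COL, the mean log2 value of the poly-A spike-in controls was 0.20 in AB, -0.37 in SIZ1 and -0.18 in SAB. The part of the RNA amount and of these controls in the GI values was not tested. The array medians lay between 3.48 and 3.51 in the means of the 4 genotypes. In RNA of seedlings, fewer cells of a type that uses GI and less GI RNA per cell cannot be told apart.

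**Figure D1:**
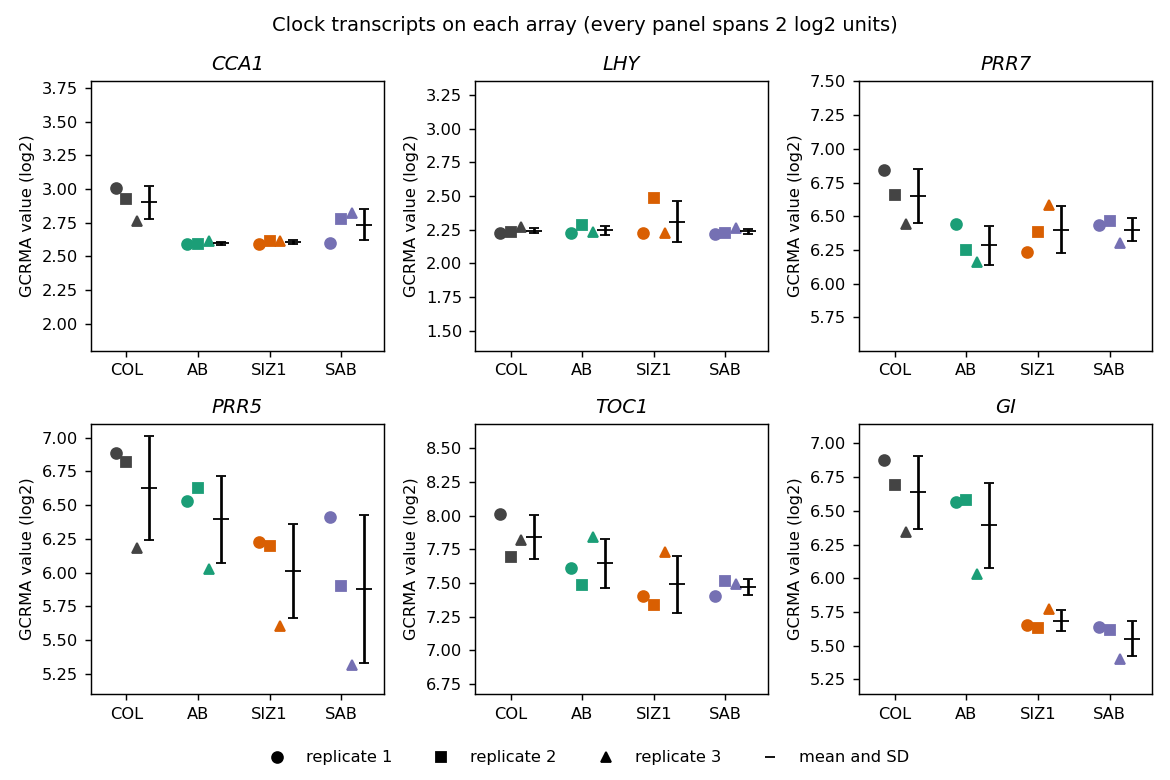
GCRMA values on the log2 scale (y axis) of the 6 clock transcripts in the 4 genotypes (x axis), with 1 point per array, shaped by replicate number, and the mean and SD of each genotype beside the points. GI shows the 6 SIZ1 and SAB arrays between 5.40 and 5.77, below all COL and AB arrays, while CCA1 and LHY lie between 2.22 and 3.01 on every array.

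PRR5, the pseudo-response regulator of the afternoon, had its lowest means in the same lines as GI but a wider spread. Its values were 6.89, 6.82 and 6.18 in COL, 6.53, 6.63 and 6.02 in AB, 6.23, 6.20 and 5.61 in SIZ1, and 6.41, 5.90 and 5.31 in SAB. The genotypes overlapped, and within each genotype the array numbered 3 was the lowest. Without regard to the number, PRR5 differed from COL by -0.62 in SIZ1 (SE 0.31, limma adjusted p = 0.396) and by -0.75 in SAB (SE 0.31, limma adjusted p = 0.264), and neither was called. Leaving out 1 array moved the SAB difference to between -1.02 (without SAB 1) and -0.47 (without SAB 3), and the AB difference to between -0.46 (without COL 3) and -0.05 (without AB 3), with no call.

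Arrays with the same number deviated together across genotypes, as described under the processing, so the number was also taken as a block. Between arrays of the same number, PRR5 in SIZ1 minus COL came to -0.66, -0.62 and -0.58, and in SAB minus COL to -0.47, -0.92 and -0.87, below 0 in 3 of 3 pairs each. With the block PRR5 fell by 0.62 in SIZ1 (95% interval -0.88 to -0.35, limma adjusted p = 0.0248) and by 0.75 in SAB (interval -1.02 to -0.49, limma adjusted p = 0.0132). In that fit it also fell by 0.52 in SAB relative to AB (limma adjusted p = 0.0374) and by 0.57 with 6 arrays against 6 (1.48-fold, limma adjusted p = 0.00432, against 0.153 without the block). The block called 5.13% of all probe sets in SIZ1 against COL, 2.46% as lower, and 13.5% in the 6 against 6 comparison, 6.67% as lower.

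In AB minus COL the paired differences of PRR5 were -0.35, -0.19 and -0.16, and the mean of -0.23 was not called with the block (interval -0.50 to 0.03, limma adjusted p = 0.575). SIZ1 and AB differed by -0.38, not called with the block either (limma adjusted p = 0.0919). The order of the means was COL, AB, SIZ1 and SAB, as for GI, and no neighbours in it were called different.

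TOC1, the evening regulator that GI acts on through protein turnover, differed less. It stood at 8.01, 7.69 and 7.82 in COL, 7.61, 7.49 and 7.84 in AB, 7.40, 7.34 and 7.73 in SIZ1, and 7.41, 7.51 and 7.49 in SAB. The SAB arrays all lay below the COL arrays, and the SIZ1 array numbered 3 lay above the lowest COL array. A lower position of SAB than COL without overlap was found for 9.83% of all probe sets. TOC1 differed from COL by -0.35 in SIZ1 (interval -0.63 to -0.07, limma adjusted p = 0.193), by -0.37 in SAB (interval -0.65 to -0.09, limma adjusted p = 0.159) and by -0.20 in AB (interval -0.48 to 0.08, limma adjusted p = 0.875). With 6 arrays against 6 it differed by -0.26 (limma adjusted p = 0.0978, and 0.0622 with the block). It was called there without SIZ1 3 (-0.32, limma adjusted p = 0.0297) and with array weights (-0.26, limma adjusted p = 0.0268). The order of the means was COL, AB, SIZ1 and SAB, and no neighbours in it were called different.

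PRR7, the regulator of midday, had its lowest mean in AB. Its values were 6.84, 6.66 and 6.44 in COL, 6.45, 6.25 and 6.16 in AB, 6.23, 6.38 and 6.58 in SIZ1, and 6.43, 6.47 and 6.30 in SAB. All genotypes overlapped. The difference from COL was -0.36 in AB (interval -0.63 to -0.09, limma adjusted p = 0.407), -0.25 in SIZ1 (interval -0.52 to 0.02, limma adjusted p = 0.365) and -0.25 in SAB (interval -0.52 to 0.02, limma adjusted p = 0.361), and none was called. With 6 arrays against 6 it was -0.07 (interval -0.26 to 0.12). The order of the means was COL, SAB, SIZ1 and AB, with no neighbours called different.

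The signals of the dawn genes CCA1 and LHY were below the median of all probe set means, 3.51, in all 4 genotypes. Those of LHY were close to the lowest that GCRMA gives, and those of CCA1 had a mean of 2.71. LHY lay between 2.22 and 2.28 on 11 arrays and at 2.48 in SIZ1 2, below the first quartile of all probe set means, 2.51. Its differences from COL were 0.0031 in AB, 0.07 in SIZ1 and -0.0061 in SAB, and none was called (lowest limma adjusted p = 0.715). GCRMA compresses differences in this range, so the values say little about whether LHY differed.

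CCA1 read 3.01, 2.93 and 2.77 in COL, 2.59, 2.59 and 2.61 in AB, 2.59, 2.61 and 2.62 in SIZ1, and 2.60, 2.78 and 2.82 in SAB. The AB and SIZ1 arrays lay below all COL arrays, and those of SAB overlapped them. A lower position than COL without overlap was found for 6.43% of all probe sets in AB and for 26.0% in SIZ1. The difference from COL was -0.30 in AB (interval -0.45 to -0.15, limma adjusted p = 0.179), -0.29 in SIZ1 (interval -0.45 to -0.14, limma adjusted p = 0.0513, and 0.0725 with the block) and -0.17 in SAB (interval -0.32 to -0.01, limma adjusted p = 0.253). In SIZ1 it was called with quantile normalization (-0.28, limma adjusted p = 0.0440), with a trended and robust variance prior (0.0420), without COL 3 (-0.36, 0.0213) and without SAB 1 (0.0310). No line had a CCA1 mean above that of COL. The order of its means was COL, SAB, SIZ1 and AB, with no neighbours called different. The probe set 266720_s_at, not among the 6, lay between 2.55 and 2.84, and its differences from COL were -0.05, -0.11 and -0.02 in AB, SIZ1 and SAB, none of them called (lowest limma adjusted p = 0.481).

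**Figure D2:**
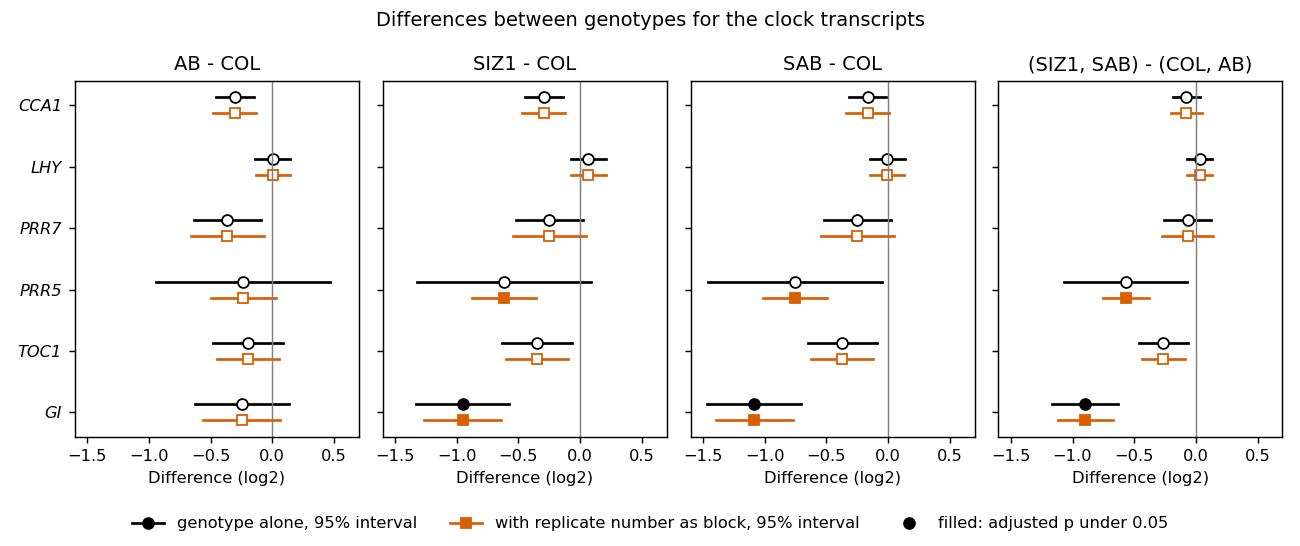
Differences in log2 units (x axis) with 95% intervals for the 6 clock transcripts in 4 comparisons, fitted by genotype alone (circles) and with a block for replicate number (squares), filled where the adjusted p is under 0.05. GI is called in SIZ1, in SAB and with 6 arrays against 6 by both fits, PRR5 with the block alone, and nothing is called in AB against COL.

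Counted over the 6 transcripts, 1 was called lower and 0 higher in SIZ1 against COL, in SAB against COL, in SAB against AB, in SIZ1 against AB and with 6 arrays against 6, and each time it was GI. The calls took 3.22%, 3.21%, 4.43%, 5.22% and 10.7% of all probe sets in these comparisons, the lower ones 1.29%, 1.56%, 2.08%, 2.05% and 5.04%, and the higher ones 1.93%, 1.66%, 2.35%, 3.17% and 5.67%. With the block 2 of 6 were called lower, GI and PRR5, in all of these but SIZ1 against AB, where GI alone was. The block called 5.16% of all probe sets in SAB against COL, 2.76% as lower, 6.82% in SAB against AB, 3.42% as lower, and 7.67% in SIZ1 against AB, 3.43% as lower. Array weights called GI, PRR5 and TOC1 with 6 arrays against 6. Their estimate stopped before it converged, and the share of all probe sets called with them is not given here. The median difference of the 6 was -0.32 in SIZ1 and -0.31 in SAB relative to COL, where the median of all probe sets was -0.02 and 0.0040. Relative to AB it was nearer to that of all probe sets, -0.07 in SIZ1 and -0.09 in SAB, where all probe sets had -0.01 and 0.0048. With 6 arrays against 6 it was -0.17, where all probe sets had -0.0056. The COL arrays are shared by the comparisons with COL.

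In AB against COL limma called 0 of the 6, with 2 at an unadjusted p under 0.05, CCA1 and PRR7, and 0.0615% of all probe sets were called, with 1763 of 22746 at an unadjusted p under 0.05. The median difference of the 6 was -0.24, where that of all probe sets was -0.00069, and 5 of 6 were below 0. In SAB against SIZ1 limma called 0 of the 6, and 0 had an unadjusted p under 0.05. Among all probe sets 0% was called there, with 981 at an unadjusted p under 0.05, and the block also called 0.

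Whether SAB departed from the added changes of AB and SIZ1 was also tested, and limma called 0 of the 6 and 0% of all probe sets, where 1218 had an unadjusted p under 0.05. The block called 0 of the 6 and 0.0528% of all probe sets, 0.0308% as lower. CCA1 alone of the 6 had an unadjusted p under 0.05 there. Its departure was 0.43 (interval 0.22 to 0.65, limma adjusted p = 0.501), and it was called with array weights (0.47, limma adjusted p = 0.0451). On the AB and SIZ1 arrays CCA1 lay between 2.59 and 2.62. SAB 2 and SAB 3 lay above these, at 2.78 and 2.82, and SAB differed from AB by 0.14, which was not called (interval -0.02 to 0.29, limma adjusted p = 0.351). GCRMA's floor may limit a further fall in SAB, and the part of that limit in the departure of CCA1 was not tested. For GI the departure was 0.11 (interval -0.42 to 0.65) and for PRR5 0.10 (interval -0.90 to 1.09, and -0.27 to 0.47 with the block).

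Replicate number was examined as a source of variation in its own right, since these transcripts change through the day. In a model with genotype and number, PRR5 was called for the number (limma F = 32.4, limma adjusted p = 0.0269), 1 of the 6 transcripts, where 1.61% of all probe sets were called. Its deviations from the genotype means averaged 0.29 on the arrays numbered 1, 0.16 on those numbered 2 and -0.45 on those numbered 3. It was lowest on the array numbered 3 in 4 of 4 genotypes, a pattern that 3.11% of all probe sets share. Its call for the number ended in 9 of the 12 fits that left out 1 array (without COL 1, COL 2, COL 3, AB 2, AB 3, SIZ1 1, SIZ1 2, SIZ1 3 or SAB 3, limma adjusted p up to 0.0961).

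GI was not called for the number (limma F = 3.71, limma adjusted p = 0.464). Its mean deviations were 0.12, 0.06 and -0.18, and the array numbered 3 was the lowest in 3 of 4 genotypes, while SIZ1 3 was the highest of its genotype. The range of GI over the arrays of a genotype was 0.54 in COL, 0.55 in AB, 0.14 in SIZ1 and 0.23 in SAB, a difference in range that was not tested. TOC1 deviated by -0.0042, -0.10 and 0.11 (limma adjusted p = 0.577) and in no genotype was lowest on the array numbered 3. PRR7 deviated by 0.06, 0.0056 and -0.06 (limma adjusted p = 0.872). Without the 4 arrays numbered 3, GI fell by 1.14 in SIZ1 and by 1.16 in SAB relative to COL (limma adjusted p = 0.0139 and 0.0141), and PRR5 differed by -0.64 and -0.70 (limma adjusted p = 0.135 and 0.132). What the number stands for is not given in the labels.

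**Figure D3:**
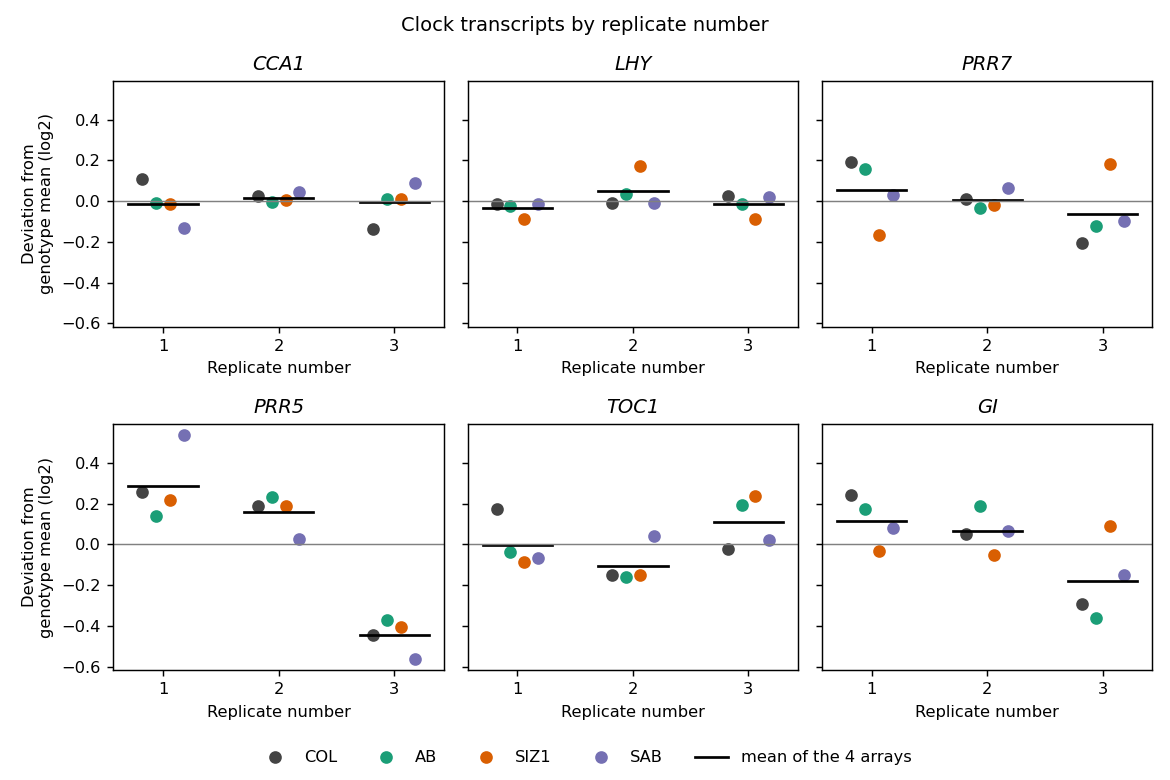
Deviation of each array from the mean of its genotype, in log2 units (y axis), against replicate number (x axis) for the 6 clock transcripts, coloured by genotype, with a bar at the mean of the 4 arrays of a number. For PRR5 the 4 arrays numbered 3 all lie below 0, with a mean of -0.45, and for TOC1 the bar of number 3 lies at 0.11.

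Whether these values are a shift in phase or in level was asked of the 6 transcripts together. GI was called lower with 6 arrays against 6. PRR5 was called there with the block and with array weights, and TOC1 with array weights and without SIZ1 3, but neither was called by genotype alone on all arrays. CCA1, with low signals, was called lower in SIZ1 against COL in 4 of the alternatives and not by genotype alone on all arrays. PRR7 and LHY were called in none of the comparisons by genotype alone or with the block. The calls of CCA1, PRR5 and TOC1 thus depend on the fit, while that of GI with 6 arrays against 6 was kept in all 20 alternatives. No order by time of day was tested. With 1 harvest and no time of day, an earlier or later phase and a lower level at every time cannot be told apart in these data.

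The wider clock was described from a list of 34 other components, of which 5 have a probe set that names them alone. In AB, SIZ1 and SAB against COL 0 of the 5 were called in either direction by limma, with or without the block. Of all probe sets 0.0615%, 3.22% and 3.21% were called in these comparisons, and 0.325%, 5.13% and 5.16% with the block. With shares this low, 0 of 5 says little about the wider clock. TIC, a nuclear protein needed for normal timing around dawn, had the differences furthest from 0 in SIZ1. It stood at 6.03 ± 0.25 (SD, n = 3) in COL, 5.97 ± 0.13 in AB, 5.70 ± 0.07 in SIZ1 and 5.76 ± 0.06 in SAB, and differed from COL by -0.33 in SIZ1 (interval -0.58 to -0.08, limma adjusted p = 0.168) and by -0.28 in SAB (limma adjusted p = 0.253). With 6 arrays against 6 the difference of TIC was -0.27 (limma adjusted p = 0.0594).

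RVE5 and RVE6 are Myb-like factors of the REVEILLE family, to which CCA1 and LHY are related. RVE5 lay between 3.42 and 3.78, with differences from COL of 0.02, -0.08 and -0.14 in AB, SIZ1 and SAB. RVE6 lay between 3.44 and 4.13, with differences of -0.05, -0.12 and -0.29. XCT, a nuclear protein that affects the period of the clock, differed from COL by 0.06, 0.01 and -0.05, and FIO1, an RNA methyltransferase that also affects the period, by 0.13, 0.08 and 0.03. Of the 5, TIC and RVE5 had an unadjusted p under 0.05 with 6 arrays against 6, where 5259 of all 22746 probe sets did, and neither was called (limma adjusted p = 0.0594 and 0.126).

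Among 26 clock output genes, 5 had a probe set that names them alone, and 0 were called in AB, SIZ1 or SAB against COL by limma, with or without the block. The shares of all probe sets called were again 0.0615%, 3.22% and 3.21%, and 0.325%, 5.13% and 5.16% with the block. COR27 and COR28 are cold-regulated genes whose proteins act on the promoters of PRR5 and TOC1. COR27 stood at 8.52 ± 0.09 (SD, n = 3) in COL, 8.71 ± 0.07 in AB, 8.76 ± 0.37 in SIZ1 and 8.91 ± 0.35 in SAB, and its difference from COL was 0.24 in SIZ1 (interval -0.21 to 0.68) and 0.39 in SAB (interval -0.06 to 0.84, limma adjusted p = 0.394). COR28 differed from COL by -0.07, -0.14 and -0.15 in AB, SIZ1 and SAB. COR15A, which encodes a chloroplast protein that protects membranes in the cold, differed by -0.46, -0.17 and 0.29, with a range of 6.99 to 8.65 over all arrays. CDF4 and CDF5, Dof factors of the family that GI helps to remove so that CONSTANS can be made, lay between 2.68 and 3.35 and between 2.19 and 2.22. No photoreceptor or light signalling gene of a list of 10 was named alone by a probe set.

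**Figure D4:**
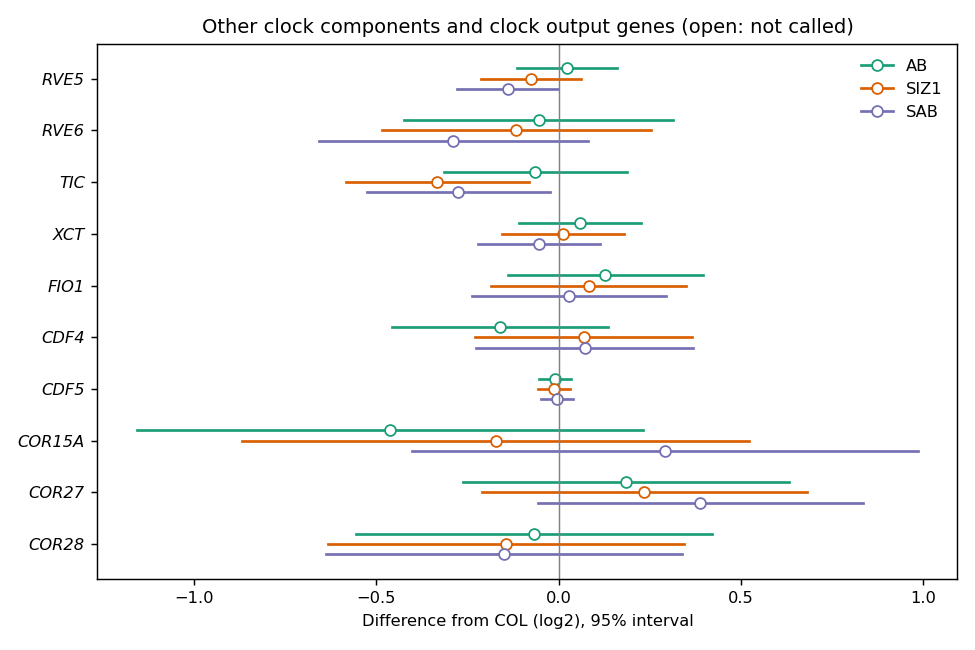
Differences from COL in log2 units (x axis) with 95% intervals for the 5 other clock components and 5 clock output genes that a probe set names alone, coloured by line. All symbols are open because none was called, and TIC in SIZ1 lies at -0.33.

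Transcripts with a profile like that of GI were sought among 5977 brighter probe sets that name 1 gene, by the root mean square difference over 12 arrays after each was centred on its own mean. The nearest to GI were AILP1 (0.112 log2 units), LHCB4.2 (0.137) and AT1G55960 (0.151), where GI itself departed from its mean by 0.493. LHCB4.2, a light-harvesting protein of photosystem II, stood at 11.26 ± 0.23 (SD, n = 3) in COL, 10.92 ± 0.24 in AB, 10.42 ± 0.08 in SIZ1 and 10.41 ± 0.17 in SAB. It fell by 0.84 in SIZ1 and by 0.85 in SAB relative to COL (limma adjusted p = 0.0169 and 0.0165). LHCB4.2 is named here for its likeness to GI on the same arrays, so these differences are not separate evidence on GI. LHCB4.2 was also 1 of the 3 green tissue markers. LHCB4.1 fell by 0.19 in SIZ1 (limma adjusted p = 0.0280) and differed by -0.14 in SAB (limma adjusted p = 0.0847, and 0.0445 with the block), and RCA differed from COL by -0.02 in SIZ1 and 0.06 in SAB. The part of green tissue in the GI values was not tested.

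The nearest to PRR5 were AT1G09310 (0.142), AT2G39920 (0.171) and AT4G33080 (0.172), where PRR5 departed from its own mean by 0.451. These 3 had means of 11.33, 5.57 and 5.58 in COL and of 10.67, 4.64 and 5.06 in SAB, each read on its own probe set. The other 4 of the 6 transcripts had genotype means within 0.5 of each other, and no neighbours were sought for them. The likeness is a description over arrays that share their genotype and number, and no test was made.

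**Figure D5:**
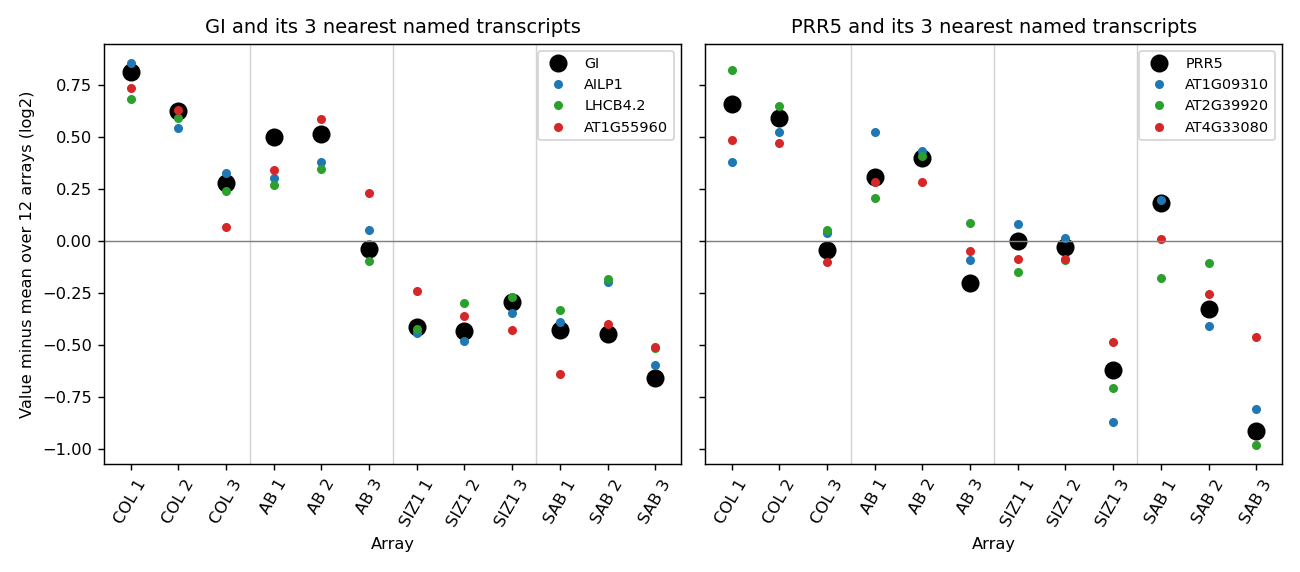
Values minus the mean over 12 arrays, in log2 units (y axis), on each array (x axis) for GI and PRR5 (large black points) and the 3 named transcripts nearest to each. For GI the profiles separate COL and AB from SIZ1 and SAB. For PRR5 they dip on the arrays numbered 3, and PRR5 itself overlaps between those groups.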

How the data were processed

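Affymetrix ATH1 arrays measured total RNA of 12 seedling samples, 1 array each. Per the submitters' processing notes, the authors used GCRMA, and the deposited values are on the log2 scale. The sources used here do not give its version or which arrays were processed together. The log2 scale was read from the range. GCRMA draws dim probe sets to a floor. The 64 control probe sets were left out, which left 22746. The platform annotation names exactly 1 gene for 13513 of them, several for 503 and none for 8730, with 13436 symbols updated through RefSeq (TAIR10.1). No sequence or coordinate is printed.

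Genotype means over the 12 arrays were fitted in limma 3.58.1 under R 4.3.3 (lmFit and eBayes, 8 residual degrees of freedom). Tests were two-sided, Benjamini-Hochberg adjustment ran over all probe sets, and calls were made at 0.05. SE and intervals are limma's. The procedure was tested on simulated data. SIZ1 against AB was added after the data were seen, to order the genotypes. The members and lists were chosen with earlier results of these data known. The 7 members, every clock component with its own probe set, up to 4 called members of each other list, the SIZ1, SPF1 and SPF2 probe sets, and the 3 nearest profiles of members whose genotype means span over 0.5 were named by rule. Clock output genes and uncalled markers were named after their values were seen.

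The replicate numbers come from the sample names. For same-numbered arrays the 18 correlations of deviations from the genotype mean lay between 0.102 and 0.451 (median 0.257), so the numbers were taken to pair the samples. The median of the 36 other correlations was -0.125. Deviations cancel within a genotype, so positive correlations of same-numbered arrays bring negative ones elsewhere, and this median is not separate evidence. Values with the number as a block are printed where they change a call. Alternatives were the block, quantile normalization, median centring, brighter probe sets only, a trended and robust prior, array weights or the 2 genotypes alone, and each array left out.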

Additional observations from a re-analysis of the deposited data

How the results depend on the processing

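No difference of the 6 transcripts that was called in the main or an alternative fit changed its sign. The number called was 1 in SIZ1 against COL. It was 2 with the replicate block, with quantile normalization and with the trended and robust prior, 0 with the 2 genotypes alone, and 0 to 2 without single arrays. Of all 22746 probe sets, 732 were called there in the main fit and 1167 with the block. Quantile normalization called 683, the trended and robust prior 703, and the 2 genotypes alone 131. In SAB against COL the number of the 6 called was 1, 2 with the replicate block and 0 with the 2 genotypes alone. In SAB against AB it was 1, 2 with the replicate block, 0 with the 2 genotypes alone, 0 without the 2 AB arrays whose labels give an age, and 0 to 1 without single arrays. In SIZ1 against AB it was 1, 0 with the 2 genotypes alone and without those 2 AB arrays, and 0 to 1 without single arrays. With SIZ1 and SAB against COL and AB it was 1, 2 with the replicate block, 3 with array weights, and 1 to 2 without single arrays. For the departure from the sum it was 0, and 1 with array weights. For the replicate number it was 1, and 0 to 1 without single arrays.

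The fits to 2 genotypes alone, and those without an array, have fewer residual degrees of freedom. There GI had limma adjusted p of 0.0877 in SIZ1 against COL, 0.0507 in SAB against COL, 0.0724 in SAB against AB and 0.133 in SIZ1 against AB. For the other changes the cause was not tested. The estimate of the array weights stopped before it converged. The replicate block changed the calls of PRR5 and of no other member. The fits without the 4 arrays numbered 3 and without the 2 AB arrays were chosen after seeing the data. GCRMA's floor limits what CCA1 and LHY can show.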
